A study of Homo sapiens with 2 samples.

Results

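DNAJ proteins, also called J-domain proteins or HSP40s, are the co-chaperones that choose the clients of HSP70. Their J domain binds HSP70 through a conserved His-Pro-Asp motif and speeds its hydrolysis of ATP, which locks HSP70 onto an unfolded protein. Class A members carry the J domain, a glycine- and phenylalanine-rich stretch and a zinc finger, class B members lack the zinc finger, and class C members share little beyond the J domain and serve at many sites, from the ER lumen to the spliceosome. R-loops, whose signal was mapped at the genes of these proteins, are structures in which an RNA pairs with 1 strand of the DNA duplex, and they often form behind RNA polymerase at active, GC-rich promoters.

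The members were the protein-coding genes whose symbols match DNAJA, DNAJB or DNAJC followed by a number. There were 45 of them among 19974 protein-coding genes and 59098 genes in all on chromosomes 1 to 22 and X. Of the members, 4 belonged to class A, 12 to class B and 29 to class C. The readthrough gene DNAJC25-GNG10 matches the pattern and shares its start and all its peaks with DNAJC25, so these members are not independent. The data came from CUT&Tag, in which an antibody tethers a transposase that cuts and tags nearby DNA. The S9.6 antibody, which binds RNA-DNA hybrids and also has some affinity for double-stranded RNA, was used on A549, a human lung cancer cell line in long use, of wild-type genotype; the labels list no treatment. An IgG library of the same cells was not analysed here. There was 1 S9.6 library, so no replicate spread and no test between groups of samples exist, and every interval below is an exact (Clopper-Pearson) 95% binomial interval that covers counting error only.

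The peak list held 47810 peaks, 45756 of them on chromosomes 1 to 22 and X, with a median width of 685.5 bp and a median maximum coverage of 2. Maximum coverage is the highest pile-up within a peak as the authors' caller wrote it. Every value is a whole number. Total depth is unknown, so a gene without a listed peak may carry signal under the authors' threshold.

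A listed start of transcription, with 250 bases before it and 50 after it, was found in RefSeq promoter sequences (GRCh38.p14) for 41 of the 45 members, the exceptions being DNAJC1, DNAJC5B, DNAJC22 and DNAJC24. The 250 bases before the start are shown for 5 members at the extremes of base composition and peak height, 5′ to 3′ in the direction of transcription, with each CpG dinucleotide in capitals. DNAJC27 (chr2:24972095-24972344, minus strand) and DNAJB2 (chr2:219279116-219279365, plus strand) had the highest peaks of the family, with a maximum coverage of 8 each. DNAJC12 (chr10:67838189-67838438, minus strand) and DNAJB7 (chr22:40862114-40862363, minus strand) had the fewest CpGs and no peak. DNAJB14 (chr4:99946619-99946868, minus strand) had the most CpGs and also no peak.
DNAJC27: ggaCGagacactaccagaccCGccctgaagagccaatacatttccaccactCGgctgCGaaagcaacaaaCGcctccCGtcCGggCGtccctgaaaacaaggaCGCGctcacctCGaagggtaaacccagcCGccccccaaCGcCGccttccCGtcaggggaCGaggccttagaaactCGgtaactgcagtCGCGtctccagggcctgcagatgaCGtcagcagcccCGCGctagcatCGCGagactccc
DNAJB2: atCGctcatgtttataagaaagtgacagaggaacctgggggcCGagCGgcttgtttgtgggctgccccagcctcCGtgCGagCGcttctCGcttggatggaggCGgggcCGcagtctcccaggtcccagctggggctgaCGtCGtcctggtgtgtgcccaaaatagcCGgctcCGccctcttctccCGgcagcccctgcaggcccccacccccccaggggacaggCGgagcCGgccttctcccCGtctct
DNAJC12: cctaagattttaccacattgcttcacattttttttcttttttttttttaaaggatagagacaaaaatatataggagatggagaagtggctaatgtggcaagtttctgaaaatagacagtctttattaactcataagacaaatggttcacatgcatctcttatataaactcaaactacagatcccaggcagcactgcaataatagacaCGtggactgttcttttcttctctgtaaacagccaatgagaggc
DNAJB7: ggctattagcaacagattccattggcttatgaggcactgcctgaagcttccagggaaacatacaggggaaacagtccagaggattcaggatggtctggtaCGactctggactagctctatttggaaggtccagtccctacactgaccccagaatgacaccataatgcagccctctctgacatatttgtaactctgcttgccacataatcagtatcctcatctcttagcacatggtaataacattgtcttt
DNAJB14: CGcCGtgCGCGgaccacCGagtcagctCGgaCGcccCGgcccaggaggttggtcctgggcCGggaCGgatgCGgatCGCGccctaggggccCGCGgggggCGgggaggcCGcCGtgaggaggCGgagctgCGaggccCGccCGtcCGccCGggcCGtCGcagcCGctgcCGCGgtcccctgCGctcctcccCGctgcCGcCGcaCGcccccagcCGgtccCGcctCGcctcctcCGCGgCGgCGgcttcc
The shown bases held 24 CpGs in DNAJC27 and 17 in DNAJB2, against 1 each in DNAJC12 and DNAJB7. DNAJB14 held 41. A promoter dense in CpG thus occurred both with and without a peak, and both windows nearly free of CpG belonged to genes without one.

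The first question was how many DNAJ genes carried an S9.6 peak, and where. A boundary peak touches the 1000 bp around either end of the gene's span by at least 1 base. Such a peak was listed for 22 of 45 DNAJ genes (48.9%, 95% interval 33.7 to 64.2), beside 40.1% of all protein-coding genes. A peak at a boundary or anywhere over the span was listed for 28 DNAJ genes (62.2%, 46.5 to 76.2), beside 60.4% of all protein-coding genes. Both intervals contain the background share. The 6 members with peaks over the span alone were DNAJB1, DNAJB6, DNAJB13, DNAJC5, DNAJC5B and DNAJC15, and 17 members had no peak.

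The 3 classes did not differ beyond their intervals. Class A had a boundary peak at 3 of 4 genes (75%, 19.4 to 99.4), class B at 5 of 12 (41.7%, 15.2 to 72.3) and class C at 14 of 29 (48.3%, 29.4 to 67.5). Counting the span as well gave 3 of 4 in class A, 8 of 12 (66.7%) in class B and 17 of 29 (58.6%) in class C. The intervals overlap widely, and with 4 genes in class A they also do not show that the classes are alike. Class A genes had a median length of 18.2 kb, class B genes 17.2 kb and class C genes 38.9 kb, beside 24.2 kb over all protein-coding genes.

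**Figure D1:**
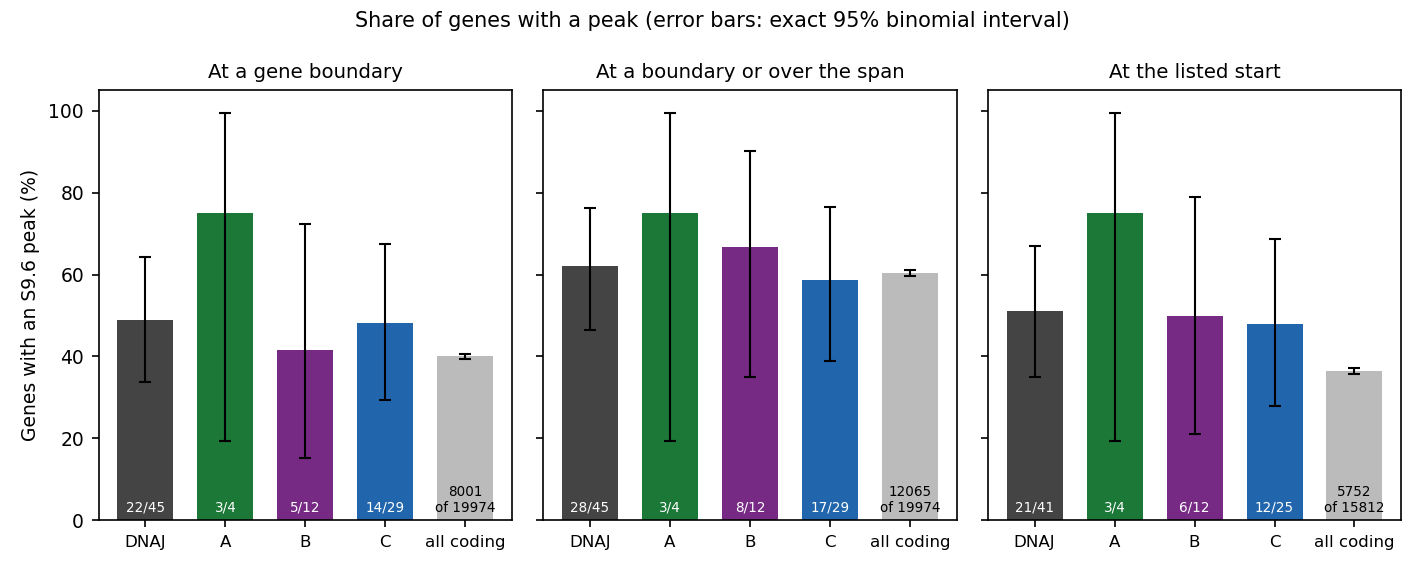
Bars show the percentage of genes with an S9.6 peak at a gene boundary, at a boundary or over the span, or at the listed start, for all DNAJ genes, for classes A, B and C, and for all protein-coding genes, with exact 95% binomial intervals and the counts at the foot of each bar. The class intervals overlap one another and the background bar in every panel.

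Among the 22 members with a boundary peak, the strongest such peak had a median maximum coverage of 4 (range 2 to 8), the same median as over the 8001 protein-coding genes with one. A boundary peak of maximum coverage 3 or more was listed for 20 of 45 DNAJ genes (44.4%), beside 32.2% of all protein-coding genes. At 5 or more the counts were 9 of 45 (20%), beside 14.5%. None of the 4 class A genes was among these 9, while class B had 3 (DNAJB2, DNAJB5 and DNAJB9) and class C had 6 (DNAJC27, DNAJC9, DNAJC21, DNAJC4, DNAJC7 and DNAJC22). The median height was 3 in class A, 5 in class B and 4 in class C.

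**Figure D2:**
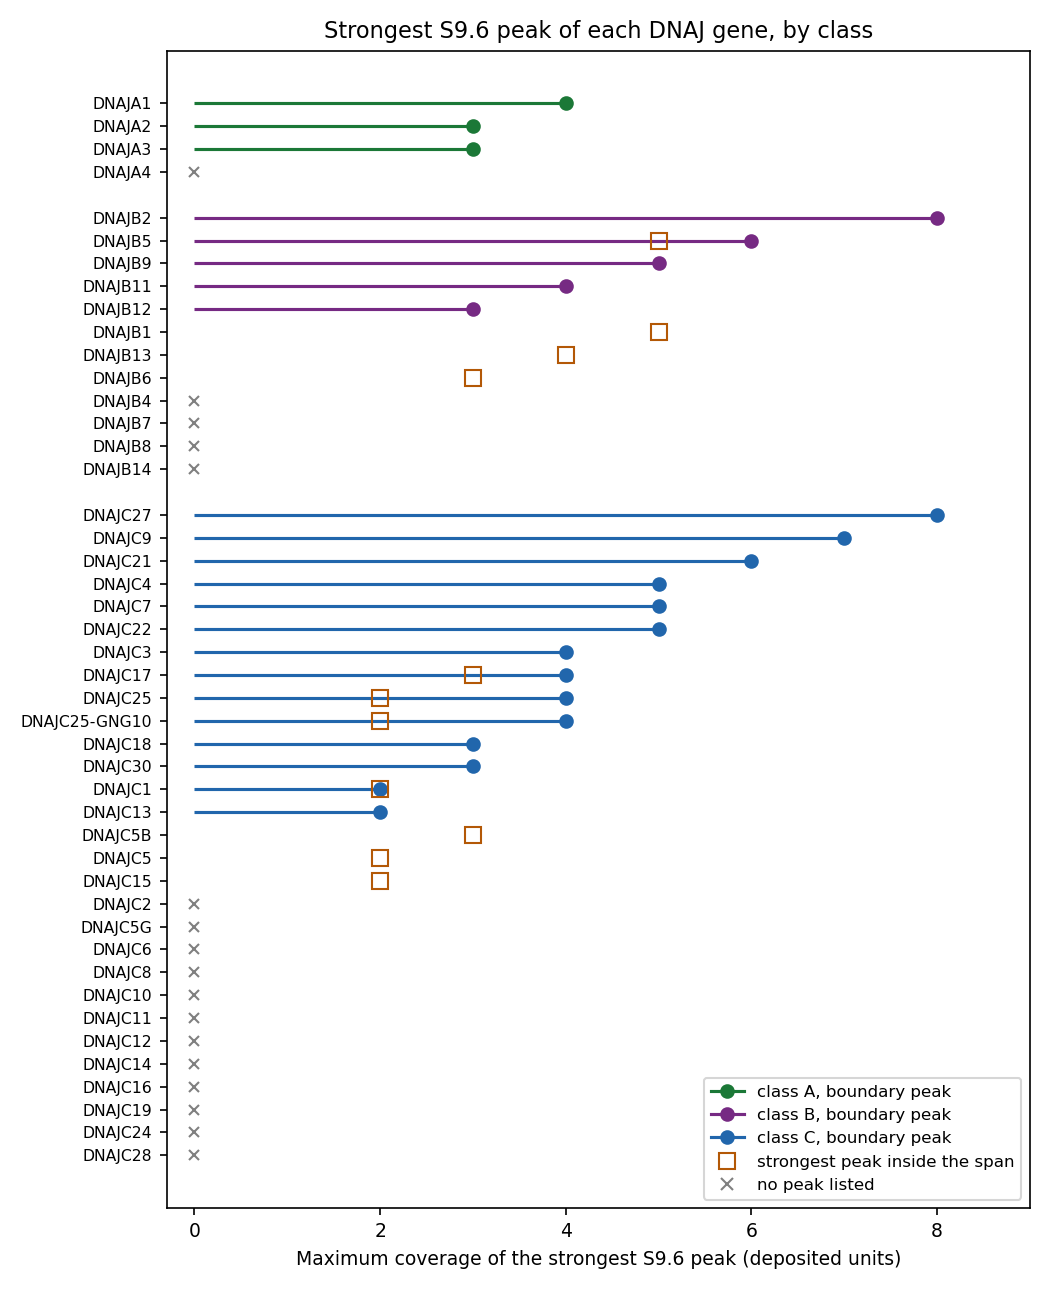
Each row is a DNAJ gene, grouped by class; the filled point gives the maximum coverage of its strongest boundary peak, the open square that of its strongest peak inside the span, and a cross marks a gene with no listed peak. DNAJB2 and DNAJC27 reach 8, and 17 genes have no peak.

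Class A holds the general cytosolic co-chaperones and a mitochondrial member. Positions given in bp are relative to the listed start, negative before it. DNAJA1, an abundant cytosolic partner of HSP70, carried a peak that covers the start (chromosome 9, 33025164 to 33025643) and reached a maximum coverage of 4, and a lower one of 3 that begins 631 bp past it. DNAJA2, its close relative, had a peak of 3 over its start, from -350 to 210 bp. DNAJA3, which works in the mitochondrial matrix, had a peak of 3 that ends at -403 bp and lies wholly outside the gene, near the start of the divergent lncRNA LOC124903635. DNAJA4 had no peak. All 3 peak-bearing class A genes therefore carried it at the start side, and none carried 1 at the end.

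Class B includes the canonical heat-inducible HSP40 and the ER-lumenal partners of the HSP70 BiP. DNAJB2, which carries ubiquitin-interacting motifs and is enriched in neurons, had the tallest class B peak (chromosome 2, 219279070 to 219280321). Its coverage reached 8 over a width of 1252 bp, and its signal summed to 2963. A second peak of 2 lay over the end of DNAJB2. Maximum coverage of 8 or more was reached by 2.61% of all peaks. DNAJB5 reached 6 over the 5′ end of its span (chromosome 9, 34988973 to 34990025) and had a further peak of 5 inside the gene at 34991914 to 34993147, whose total signal of 3215 was the highest of any DNAJ peak.

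DNAJB1 shows what a rule based on gene ends can miss. DNAJB1 encodes the best known heat-inducible HSP40, and its listed start lies 31120 bp inside the upstream end of its annotated span. No peak lay within 1000 bp of either end of that span. One with a coverage of 5 (chromosome 19, 14529372 to 14529903) ran from -632 to -101 bp. This peak does not reach the listed start of DNAJB1 but covers that of TECR, which lies 323 bp upstream of it. TECR encodes an enzyme of very-long-chain fatty acid elongation and is transcribed the other way. Another peak of 5, at 14517924 to 14518609, began 10662 bp after the listed start of DNAJB1. By the window of 1000 bp around its listed start, DNAJB1 thus counts among the genes that have a start peak, though the peak cannot be assigned to DNAJB1 over TECR.

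The ER members of class B had moderate peaks. DNAJB9 (ERdj4), a target of the unfolded protein response, had a peak of 5 that spans its start, 1142 bp wide on chromosome 7 at 108569078 to 108570219. DNAJB11 (ERdj3), a lumenal BiP partner, had a peak of 4 from -411 to 296 bp. DNAJB12, an ER-membrane member, had a peak of 3 that begins 806 bp inside the gene, and its paralogue DNAJB14 had none. Of the remaining class B genes, DNAJB6, which suppresses polyglutamine aggregation, had 3 peaks of maximum coverage 2 or 3 deep in its 80.4 kb span. DNAJB13, a sperm and cilia protein, had a peak of 4 in mid-gene. DNAJB4, DNAJB7 and DNAJB8 had none.

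Class C, with 29 of the 45 members, held the largest number of peaks and of genes without any. No peak was listed for 12 of 29 genes in class C, 4 of 12 in class B and 1 of 4 in class A. Over all protein-coding genes this was 7909 of 19974. DNAJC27, which joins a Rab-like GTPase to a J domain, reached 8 (chromosome 2, 24971435 to 24972323), with signal summing to 2697. The peak runs from -229 to 659 bp, and the divergent lncRNA DNAJC27-AS1 starts 18 bp upstream. DNAJC9, a histone H3-H4 co-chaperone, reached 7 (chromosome 10, 73246929 to 73247972) in a peak shared with the start of DNAJC9-AS1 112 bp away. DNAJC21, a factor of large ribosomal subunit maturation, reached 6 (chromosome 5, 34929089 to 34929593) in a peak of 505 bp, of which 35 bases lay inside the gene. The DNAJC21 peak also lay within 1000 bp of the start of the lncRNA gene LOC124900961. DNAJC7, a TPR co-chaperone that also binds HSP90, reached 5 (chromosome 17, 42017386 to 42018329), nearly all of it upstream, towards NKIRAS2, whose start lies 137 bp away.

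DNAJC4 had 3 boundary peaks in a gene of 3.85 kb, and the highest, with 5 (chromosome 11, 64234786 to 64235268), lay wholly past the end of DNAJC4 and within 1000 bp of the start of the growth factor gene VEGFB. The peak over the start of DNAJC4 had a maximum coverage of 3. It also lay within 1000 bp of an end of NUDT22 and of the lncRNA gene LOC124902687. A boundary peak is thus tied to the named gene by distance alone. DNAJC22 reached 5 (chromosome 12, 49347363 to 49348396) in a peak with no end of another gene within 1000 bp. The peak lies wholly inside the gene, near the lower-coordinate end of its span. Without a listed start, this end was not called start or end.

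The other class C genes with boundary peaks were lower. DNAJC3 (p58IPK), an ER-lumenal BiP co-chaperone, reached 4 with a peak from -543 to 435 bp. DNAJC25 and the readthrough gene shared a 331 bp peak of 4 over their common start. DNAJC17, which is associated with the spliceosome, reached 4 at its start and carried 7 peaks over 42.3 kb, the most of any DNAJ gene. The start peak of DNAJC17 also lay within 1000 bp of the start of the protein-coding gene ZFYVE19. Another of the 7 lay within 1000 bp of the start of the protein-coding gene C15orf62. DNAJC18 reached 3 with a peak that ends at -65 bp. DNAJC30, a mitochondrial member in a gene of 2.54 kb, had a peak of 3 on each side of its start. DNAJC13, an endosomal protein, and DNAJC1, an ER-membrane member, had a boundary peak of 2, the median of the whole list.

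Among the class C genes with peaks over the span alone, DNAJC5B had 3, and DNAJC5, the synaptic vesicle protein CSPα, and the mitochondrial DNAJC15 had 2 each. The DNAJC5 peak lay within 1000 bp of an end of the pseudogene RNU1-134P, a copy of a spliceosomal RNA gene. The origin of the reads there was not tested. The 12 class C genes with no peak were DNAJC2, DNAJC5G, DNAJC6, DNAJC8, DNAJC10, DNAJC11, DNAJC12, DNAJC14, DNAJC16, DNAJC19, DNAJC24 and DNAJC28. They include DNAJC2, which works at the ribosome, DNAJC8, a splicing-associated protein, and DNAJC19, a part of the mitochondrial import motor.

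Peaks lay at starts far more than at ends. Within 1000 bp of the listed start, 21 of 41 DNAJ genes had a peak (51.2%, 35.1 to 67.1), beside 36.4% of 15812 protein-coding genes with a listed start. Within 1000 bp of the end, 4 of 41 had a peak (9.76%, 2.72 to 23.1), beside 11.4%. These 4, DNAJB2, DNAJC4, DNAJC7 and DNAJC17, all had a start peak as well, so 17 members had a peak at the start alone and none at the end alone. Over all protein-coding genes with a listed start, 4698 had a start peak alone, 755 an end peak alone and 1054 both. By class, the start counts were 3 of 4 in A, 6 of 12 in B and 12 of 25 in C.

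The 22 distinct start peaks gathered close to the start. Of these, 13 (59.1%) covered the start itself, 5 lay wholly before it and 4 wholly after it. Over all protein-coding genes the share covering the start was 55.0%. The shares over all protein-coding genes count pairs of gene and peak, so a peak near several starts counts more than once. The middle of the region of highest coverage, the summit, lay before the start in 13 of 22 peaks (59.1%), beside 55.3% over all protein-coding genes, and within 300 bp of it in 15 (68.2%), beside 53.0%. The farthest summit before a start was at DNAJA3, at -815 bp, and the farthest after one was at the second DNAJA1 peak, at 1308 bp, followed by DNAJB12 at 1052 bp.

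**Figure D3:**
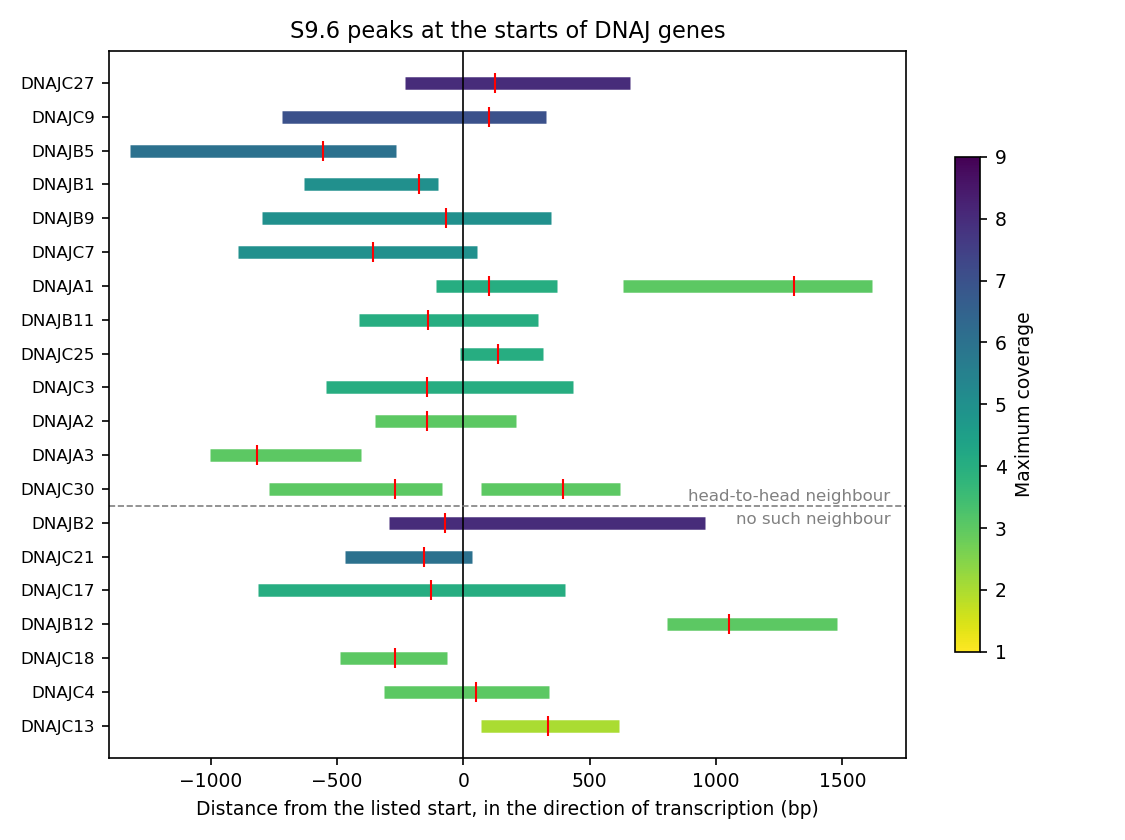
Horizontal bars show each S9.6 peak within 1000 bp of the listed start of a DNAJ gene, by distance from the start in the direction of transcription, with colour for maximum coverage and a red tick at the summit; genes above the dashed line have a head-to-head neighbour. DNAJC25-GNG10 repeats DNAJC25 and is left out. Most bars cross the start at 0, and those of DNAJA3, DNAJB1, DNAJB5, DNAJC18 and the upstream peak of DNAJC30 end before it.

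Many of these starts are shared with a divergent gene, a split made after the peaks had been seen. A head-to-head neighbour was taken as a gene on the opposite strand whose listed start lies at most 1000 bp upstream. Of 16 DNAJ genes with one, 14 (87.5%) had a start peak, beside 54.3% of 2898 such protein-coding genes. Without the readthrough gene, which repeats the start and peak of DNAJC25, the count was 13 of 15. Of the 25 without one, 7 (28.0%) had a start peak, beside 32.3%. The neighbours were protein-coding for 7 of the 16, namely APTX at DNAJA1, TECR at DNAJB1, THAP5 at DNAJB9, TBCCD1 at DNAJB11, SLC30A3 at DNAJC5G, NKIRAS2 at DNAJC7 and BUD23 at DNAJC30. For the other 9 they were lncRNA genes, among them DNAJA2-DT, DNAJB5-DT, DNAJC3-DT, DNAJC9-AS1 and DNAJC27-AS1. The 2 exceptions without a peak were DNAJA4, whose divergent lncRNA DNAJA4-DT starts 1 bp away, and the testis-biased DNAJC5G. The 7 start peaks without such a neighbour were at DNAJB2, DNAJB12, DNAJC4, DNAJC13, DNAJC17, DNAJC18 and DNAJC21. Of these, DNAJC17 and DNAJC21 have an opposite start within 1000 bp on the other side. Where starts are shared, the peak cannot be assigned to either gene, and no strand is given for the signal.

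Base composition of the promoter, also looked at after the peaks, differed between DNAJ genes with and without a start peak. In the 300-base windows, the 21 members with a start peak had a median G + C of 65.0% (range 61.3 to 75.7) and the 20 without had 57.8% (36.3 to 78.0). Over all protein-coding genes these medians were 66.0% with a start peak and 60% without. The median number of CpGs was 27 with a peak and 17.5 without among DNAJ genes, and 27 and 17 over all protein-coding genes. None of the 11 DNAJ genes under 60% G + C had a start peak, which allows a share of up to 28.5% by the exact interval, beside 20.8% of all protein-coding genes in that range. The cut at 60% was set after the peaks had been seen and lies just under 61.3%, the lowest value with a start peak. The empty count below it is therefore a description of these genes and no independent support. Between 60% and 70%, 18 of 22 did (81.8%, 59.7 to 94.8), beside 47.5%, which lies under that interval. These counts include both DNAJC25 and its readthrough gene, which share a window and a peak, and the interval treats them as independent. Above 70%, 3 of 8 did (37.5%, 8.52 to 75.5), beside 45.9%.

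The windows under 60% included DNAJC12 (36.3%), DNAJC8 (42.7%), DNAJB7 (45.3%), DNAJB13 and DNAJC6 (48.7% each) and DNAJC2 (49.3%). The 5 GC-rich exceptions above 70% without a start peak were DNAJB14 (78.0%), DNAJC5 (75.7%), DNAJC10 (75%), DNAJC11 (74.3%) and DNAJB6 (72.0%). All 16 DNAJ genes with a head-to-head neighbour had at least 60% G + C. Among the DNAJ genes of at least 60%, 14 of 16 with such a neighbour had a start peak, beside 57.6% of all protein-coding genes of the kind. Without one, 7 of 14 did (50%), beside 43.5%. The 11 DNAJ genes under 60% all lacked such a neighbour, where the share over all protein-coding genes was 18.1%. No DNAJ gene combined a neighbour with a GC-poor window, a combination in which 43.4% of protein-coding genes had a start peak. The parts of composition and of a shared promoter in the DNAJ counts were not tested. Skew, the excess of G over C divided by their sum on the coding strand, had a median of -0.054 with a start peak and -0.063 without one in DNAJ genes, and of 0.014 and 0.008 over all protein-coding genes.

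**Figure D4:**
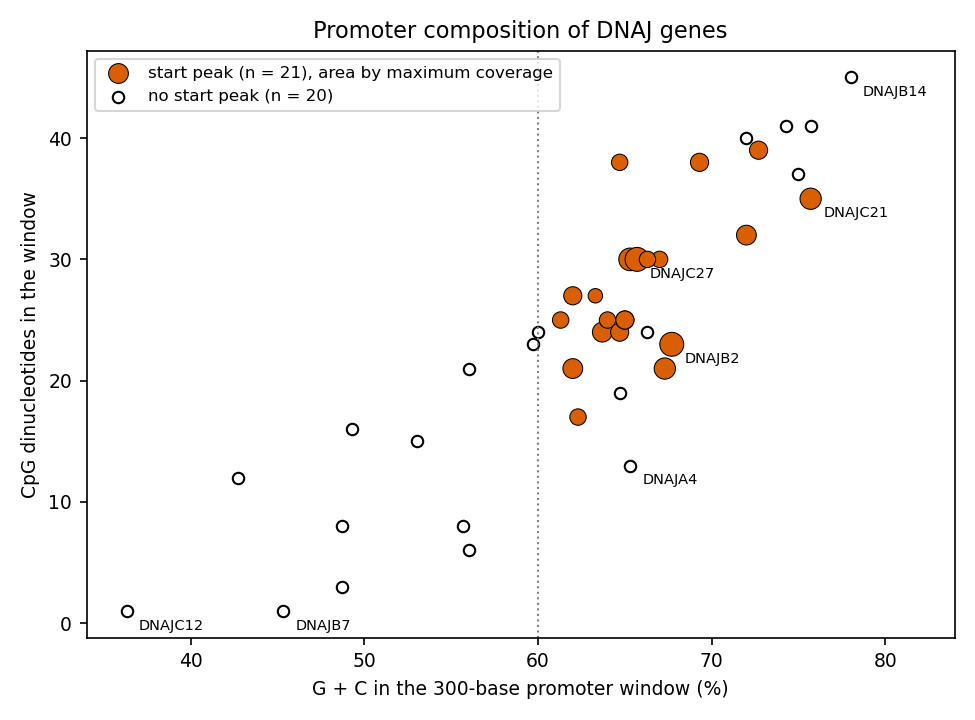
Points are the 41 DNAJ genes with a listed start, by G + C percentage and by number of CpG dinucleotides in the 300-base promoter window; filled points have a start peak, with area by maximum coverage, and open points have none. No filled point lies left of the dotted line at 60%, a cut set after the peaks had been seen, and open points lie on both sides of it.

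Regulatory motifs were looked up in the same windows on both strands. GAANNTTC or TTCNNGAA, the paired units that heat shock factors bind, was found in 4 of 41 DNAJ windows (DNAJA1, DNAJB6, DNAJB7 and DNAJC15), beside 11.4% of all protein-coding windows. Of these 4, DNAJA1 had a start peak. A run of 3 such units, which contains the paired form, was found in DNAJA1 and DNAJB6, beside 0.367% of all windows. CCAAT was found in 17 of 41 (41.5%), beside 36.3%, and 9 of the 17 had a start peak. The ER stress response element, in which CCAAT and CCACG are 9 bases apart, was found in none of the 41 windows, beside 0.120%, and includes CCAAT. These are matches of letters in a window and not binding sites.

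The next windows are printed because they hold the motifs. In DNAJB6 (chr7:157336754-157337003, plus strand) the capitals mark the run of heat shock units, in a promoter without a start peak. In DNAJB1 (chr19:14529272-14529521, minus strand) and DNAJB11 (chr3:186570470-186570719, plus strand) they mark 3 matches of CCAAT each, in either orientation, in promoters that a peak overlaps. DNAJC14, whose window also held 3 CCAAT matches, had no peak.
DNAJB6: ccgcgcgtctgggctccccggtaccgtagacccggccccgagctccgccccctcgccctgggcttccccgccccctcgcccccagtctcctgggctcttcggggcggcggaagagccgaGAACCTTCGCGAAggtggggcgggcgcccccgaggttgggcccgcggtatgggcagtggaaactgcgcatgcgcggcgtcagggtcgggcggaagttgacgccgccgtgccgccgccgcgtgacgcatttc
DNAJB1: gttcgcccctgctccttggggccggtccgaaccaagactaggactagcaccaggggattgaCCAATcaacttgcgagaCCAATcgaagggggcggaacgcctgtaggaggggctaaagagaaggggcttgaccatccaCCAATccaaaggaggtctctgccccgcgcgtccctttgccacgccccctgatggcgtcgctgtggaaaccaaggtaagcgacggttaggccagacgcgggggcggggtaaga
DNAJB11: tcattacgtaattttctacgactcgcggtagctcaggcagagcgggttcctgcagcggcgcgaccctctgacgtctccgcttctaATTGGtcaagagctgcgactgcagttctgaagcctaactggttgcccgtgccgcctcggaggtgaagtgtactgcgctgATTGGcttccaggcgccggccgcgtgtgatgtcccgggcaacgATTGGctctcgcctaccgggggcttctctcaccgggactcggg
The peak over DNAJB11 covers the whole printed stretch. That at DNAJB1 ends at -101 bp, past the 3 CCAAT matches, which begin at -189, -172 and -112 bp.

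Members were also grouped by where their proteins act, with lists drawn up from known roles when earlier results were known. ER members had a boundary peak in 7 of 10 cases (70%, 34.8 to 93.3), the exceptions being DNAJB14, DNAJC10 and DNAJC16. Their heights were modest, with a median of 4 and 5 at most. Mitochondrial members had 2 of 6 (33.3%, 4.33 to 77.7), DNAJA3 and DNAJC30 with 3 each, while DNAJC11, DNAJC19 and DNAJC28 had no peak. Members at the spliceosome, ribosome or histones had 3 of 5, with 7 at DNAJC9 and 6 at DNAJC21. Cytosolic and nuclear members of classes A and B had 4 of 8, and vesicle and endosome members 1 of 3. None of the 5 testis-biased genes, DNAJB7, DNAJB8, DNAJB13, DNAJC5B and DNAJC5G, had a boundary peak, which with 5 genes allows a share of up to 52.2%. The intervals printed here contain the 40.1% of all protein-coding genes.

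Boundary peaks were listed for 6 of 12 DNAJ genes under 10 kb (50%), beside 38.4% of all protein-coding genes of that length, for 13 of 22 of 10 to 50 kb (59.1%), beside 43.9%, and for 3 of 11 over 50 kb (27.3%), beside 36.7%. With the span included, the counts were 6 of 12 (50%, beside 43.1%), 16 of 22 (72.7%, beside 61.4%) and 6 of 11 (54.5%, beside 74.7%). The long genes DNAJC6 (151 kb), DNAJC10 (78.2 kb), DNAJC11 (67.6 kb), DNAJC24 (63.0 kb) and DNAJB14 (50.4 kb) had no peak anywhere. DNAJC1, the longest at 247 kb, had 3 peaks of maximum coverage 2.

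The genes that DNAJ proteins work with were counted in the same way, in lists drawn up when earlier results were known. Over all protein-coding genes, 40.1% had a boundary peak and 14.5% had one of 5 or more. HSP70 family genes had a boundary peak in 11 of 16 cases (68.8%, 41.3 to 89.0), with 8 at HSPA5 (BiP), 8 at the constitutive HSPA8, 6 at HSPA14, 5 at HSPA13 and 4 at the mitochondrial HSPA9, and HSPA2 carried a peak of 9 inside its span alone. The 3 members in the major histocompatibility complex, HSPA1A, HSPA1B and HSPA1L, and HSPA4L had none; HSPA1A and HSPA1B are near-identical copies, so reads there may not be placed uniquely. HSP90 genes and their co-chaperones had 10 of 12 (83.3%, 51.6 to 97.9), of which 9 reached 5 or more, and chaperonin genes had 8 of 10 (80%, 44.4 to 97.5), with 8 at CCT7. The chaperonins HSPD1 and HSPE1 are divergent neighbours and had 5 each, so they are not independent. Nucleotide exchange factors, which release ADP from HSP70 after a DNAJ protein has acted, had 5 of 10, with 6 at BAG4 and 5 at GRPEL1. Small heat shock protein genes had 4 of 9, and the J-domain genes without a DNAJ symbol had 2 of 4, HSCB with 7 and GAK with 2. The intervals of the HSP70, HSP90 and chaperonin lists start above 40.1%, and those of the other lists contain it. For HSP70 and chaperonins the lower bounds, 41.3 and 44.4, are close to 40.1. The chaperonin interval also treats HSPD1 and HSPE1 as independent, so its place above 40.1% is not secure. The share of DNAJ genes, 48.9%, was lower than those of the HSP90 and chaperonin lists, and the intervals overlap. The differences were not tested.

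The RefSeq gene table lists 33 DNAJ pseudogenes, of which 3 (9.09%) had a boundary peak, beside 7.2% of all pseudogenes. These were DNAJB12P1, DNAJC8P3 and DNAJC19P3, with a maximum coverage of 2 each. Reads from sequence shared with a parent gene could be placed at either.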

How the data were processed

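S9.6 CUT&Tag peaks of 1 library of A549 cells were used. The IgG library was not analysed here. SEACR 1.3 and Bowtie2 2.4.2 are among the tools, and GRCh38 is the build, per the submitters' processing notes. How the threshold was set, whether IgG was used and how duplicates were handled is not given in the sources used here. Both value columns deposited by the authors, the total signal and the maximum coverage signal of each peak, hold whole numbers with no sign of normalization. Depth is unknown.

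Peaks were matched to RefSeq gene spans (GRCh38.p14) with Python 3.11.15 and pandas 2.3.3, using windows of 1000 bp and an overlap of at least 1 base. The starts and strands came from the RefSeq promoter table. Intervals came from scipy 1.17.1. The overlap code was checked on constructed intervals. Every member is named or counted, by a written rule. Members, lists and comparisons were chosen with earlier results of these data known, and starts, head-to-head neighbours and base composition were added after peaks were seen. No test was made, since genes are not replicates.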

Additional observations from a re-analysis of the deposited data

How the results depend on the processing

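Of 74 recomputed values for 12 results, 71 stayed close, meaning within 1.5 times the main count or, for the median peak height, within its 95% order-statistic interval. The 6 alternatives were windows of 500 and 2000 bp, peaks of maximum coverage 3 or more, peaks in the upper part of the list by total signal (at or above its median), summits in place of overlap, and no readthrough gene. With those upper peaks, class C had 9 genes with a boundary peak in place of 14 and 11 with a peak anywhere on or near the gene in place of 17. DNAJ genes without a head-to-head neighbour had 4 start peaks in place of 7. That setting lists fewer peaks for all protein-coding genes too (30.4% at a boundary). DNAJ genes with a boundary peak numbered 16 to 24 of 44 or 45. Leaving out the readthrough gene, a class C member, could not change the class A and B counts. It could lower any other count by at most 1, so part of the 71 was fixed in advance. Counting opposite starts on either side, a choice made after seeing the data as were all settings for starts, gave 16 of 18 and 5 of 23 with a start peak. No paired analysis was possible because there was 1 library. Unscaled coverage of 2 to 8 limits any ranking of members, and a gene without a peak may lie under the authors' threshold.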
